A study of Mus musculus with 47 samples.

Results

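Cdkn1a, Mdm2, Ccng1, Bbc3, Phlda3, Sesn2, Ptprv and Cdkn2a, genes of the p53 pathway, were followed through the spleens of 47 mice with terminal myeloid leukaemia. They were taken from a set list of 9 pathway genes, of which 8 were read here among 18194 genes measured. The p53 gene itself was not analysed here. Each gene was read on the brightest of the probe sets that name it alone, and every level below is a log2 expression value on that probe set's own scale, so levels are not set against each other between genes.

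Each array held RNA from the spleen of 1 mouse whose leukaemia, labelled undifferentiated, arose from Sleeping Beauty mutagenesis, in which a transposon jumps through the genome and can alter genes where it lands. Every mouse, in all groups, carried the Cre transgene Tg(ACTB-cre)2Mrt, which the ACTB promoter drives, the transposase allele Gt(ROSA)26Sortm2(sb11)Njen and the T2/Onc2 transposon array, from line 6070 in 26 mice and from line 6113 in 21. The labels give a transposon insertion in Erg, which encodes an ETS factor needed by blood stem cells, for 26 tumours and none for 21. They name 25 mice as female and 22 as male, and the age label ran from 32 to 97 with a median of 68, its unit not given. All samples were whole leukaemic spleens, no leukaemia-free spleen was analysed, and fewer cells of a type and less RNA per cell cannot be told apart in them. Array numbers in the text only name samples. The Xist and Y-linked transcripts fitted the sex label in 23 arrays and went against it in 24, so the tie between an array and its labels is in doubt; correlations between genes of the same array do not use the labels.

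The p53 protein is a transcription factor that is kept low in resting cells by Mdm2, a ubiquitin ligase that is itself a p53 target. Stress signals and p19ARF, a product of Cdkn2a, release p53 from Mdm2, and p53 then switches on genes for cell cycle arrest, cell death, metabolism and its own shutdown. In blood cells loss of this pathway is a known step towards leukaemia, and cells without working p53 often make much Cdkn2a transcript.

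Promoters of 3 genes are shown because they hold a near match to the sequence p53 binds and because Cdkn1a and Rps27l each rose with Ccng1 below. Rps27l did not pass in the fit of Cdkn1a (r = 0.40, limma adjusted p = 0.302). RefSeq windows of GRCm38.p6, from 250 bases before to 50 bases after the start of a transcript, were searched on both strands for the p53 consensus half-site and for a near-full site, here 2 half-sites with a spacer of 0 bases, their core bases intact and at most 2 mismatches. The capitals mark these matches. Each window is 300 bases long and is printed 5′ to 3′ on the strand of the gene. The first lies at chr11:40755237-40755536 on the minus strand, the second at chr17:29090729-29091028 and the third at chr9:66946163-66946462, both on the plus strand.
Ccng1: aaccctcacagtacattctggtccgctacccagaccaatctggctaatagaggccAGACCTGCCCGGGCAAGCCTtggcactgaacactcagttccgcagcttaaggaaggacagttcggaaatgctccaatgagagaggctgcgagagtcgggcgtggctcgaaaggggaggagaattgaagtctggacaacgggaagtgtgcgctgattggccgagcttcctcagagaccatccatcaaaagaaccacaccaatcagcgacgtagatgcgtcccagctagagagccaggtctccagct
Cdkn1a: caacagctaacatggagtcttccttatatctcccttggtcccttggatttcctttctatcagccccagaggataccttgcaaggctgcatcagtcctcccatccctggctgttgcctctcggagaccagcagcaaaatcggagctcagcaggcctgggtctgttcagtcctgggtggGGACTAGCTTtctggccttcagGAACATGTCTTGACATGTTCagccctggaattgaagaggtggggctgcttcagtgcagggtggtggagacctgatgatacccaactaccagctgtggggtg
Rps27l: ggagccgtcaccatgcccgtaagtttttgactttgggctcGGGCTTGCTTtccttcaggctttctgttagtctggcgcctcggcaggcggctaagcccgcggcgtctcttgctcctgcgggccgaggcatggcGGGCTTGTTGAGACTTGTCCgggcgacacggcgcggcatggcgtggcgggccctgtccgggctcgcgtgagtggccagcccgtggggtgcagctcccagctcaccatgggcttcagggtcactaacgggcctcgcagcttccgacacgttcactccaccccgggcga
The near-full site begins at position -195 from the transcript start in Ccng1, at -51 in Cdkn1a and at -117 in Rps27l, with 1 mismatch in each. Cdkn1a and Rps27l each have a second window, at another transcript start, in which no match was found. Such a site occurred in 107 of 32851 windows (0.326%), and a half-site in 2745 (8.36%). Of the 7 genes of the set with a window, only Ccng1 and Cdkn1a held a near-full site; Mdm2 held a half-site at -186, and no match was found in these windows of Bbc3, Phlda3, Sesn2 and Cdkn2a. Among 41 genes of a wider p53 target list with a window, 5 (12.2%) held a near-full site, against 0.392% of all genes. Of these 5, Gtse1 and Ckap2 are not shown. Their r was 0.17 and 0.15 with Ccng1 and 0.35 and -0.040 with Cdkn1a, none at a limma adjusted p under 0.05. A match describes letters and not binding.

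Cdkn1a encodes p21, the inhibitor of cyclin-dependent kinases through which p53 arrests the cell cycle. Its level was 5.83 in the lowest array, 6.52 at the median and 7.88 in the highest, a 4.15-fold range, and 11 arrays lay above 7. Its standard deviation was larger than that of 95.4% of genes. Ccng1, cyclin G1, is a p53 target that recruits a phosphatase to Mdm2, and it ran from 7.06 through a median of 8.05 to 8.57, a 2.84-fold range with its tail on the low side. Ptprv, a receptor-like phosphatase that takes part in p53-dependent arrest, varied little, from 5.37 through 5.58 to 5.95.

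Bbc3 encodes PUMA, a BH3-only protein that triggers apoptosis, and it ran from 5.63 through a median of 6.03 to 6.93. Phlda3, which blocks Akt at the membrane, ran from 5.37 through 5.90 to 6.88, a 2.84-fold range. Sesn2, a sestrin that restrains mTORC1 and senses leucine, ran only from 5.35 through 5.59 to 6.03. The last 3 genes and Ptprv lay close to the floor of the arrays, whose values had a first quartile of 5.08, so their differences are compressed.

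Of the upstream regulators, Mdm2 moved within 1.69-fold, from 6.50 through 6.79 to 7.26. Cdkn2a, which encodes p16INK4a and p19ARF, sat near the floor in most spleens, at a median of 5.50. It exceeded 6 in 6 arrays and reached 8.06 in 1 of them, 7.99-fold over the lowest array at 5.06, while the next highest read 6.68.

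**Figure D1:**
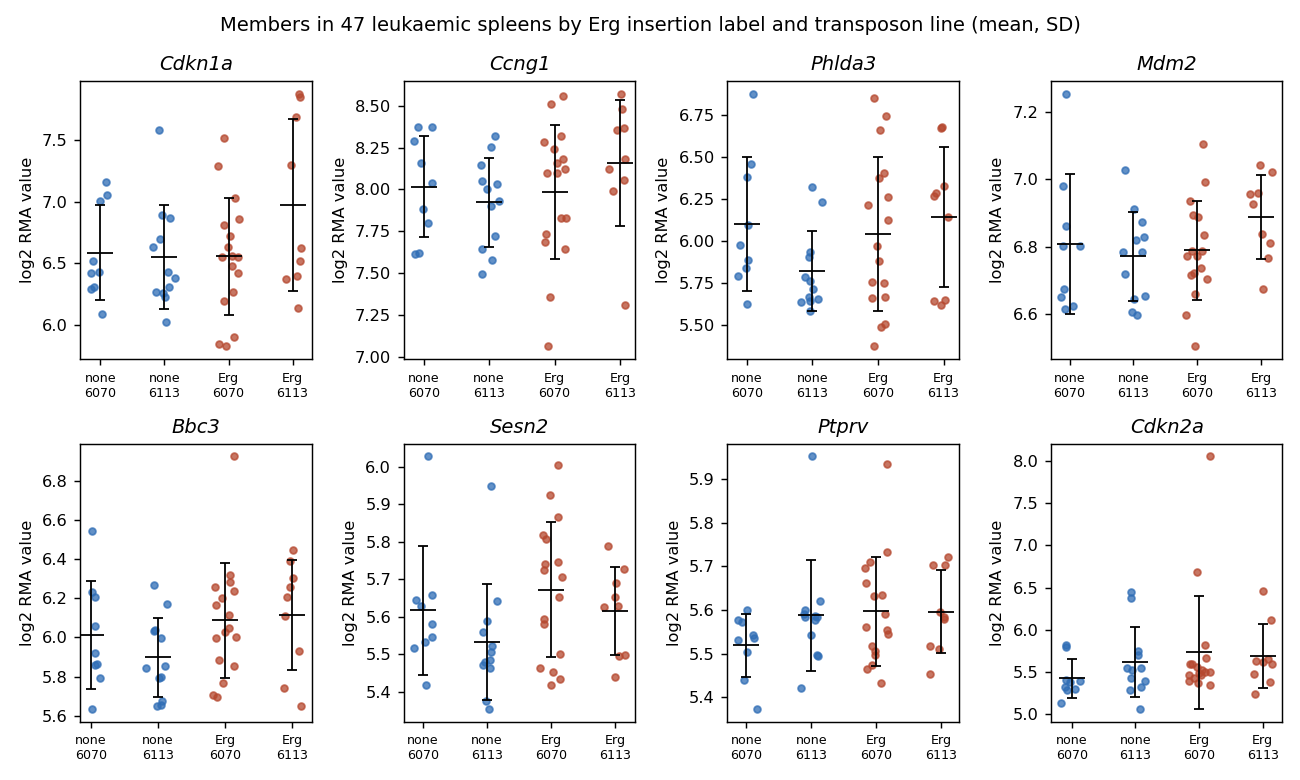
Log2 RMA values of the 8 genes, 1 point per array, by Erg insertion label and transposon line (6070 or 6113), with the mean and SD of each group in black. The groups overlap for every gene, and 1 Cdkn2a value stands at 8.06 above all others.

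The first question was whether these targets were high in the same spleens. They were tested with limma: each gene's level was fitted against all other genes over the 47 arrays, and a pair was called when the Benjamini-Hochberg adjusted p was under 0.05 in the fits of both genes. Of 28 pairs, 6 were called, and all 6 were positive. Cdkn1a, Ccng1 and Phlda3 made a trio in which every pair was called, and Phlda3, Sesn2 and Bbc3 made another.

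In the first trio, Cdkn1a and Ccng1 had Pearson r = 0.64 and Spearman rho = 0.64 (permutation p = 1e-05 for both, the smallest that 1e+05 permutations can give; larger adjusted p = 0.00892). The 3 spleens with the highest Cdkn1a had Ccng1 at 8.48, 8.57 and 8.18, above its median, while some with high Ccng1 had ordinary Cdkn1a. Cdkn1a and Phlda3 had r = 0.64 and rho = 0.58 (larger adjusted p = 0.00892), and Ccng1 and Phlda3 had r = 0.71 and rho = 0.74 (larger adjusted p = 6.3e-05). With the 2 arrays most distant from the first gene's median left out, r was 0.59, 0.61 and 0.74.

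Few other genes passed the threshold with Cdkn1a. In the fit of Cdkn1a only 5 of 18178 genes (0.0275%) rose with it, and they were Ccng1, Phlda3, Psrc1, Slc19a2 and Gkn3. None fell (0%). Gkn3 ran only from 5.19 to 5.50, close to the floor of the arrays. At an unadjusted p under 0.05 in limma, 1514 genes were higher and 766 lower. Ccng1 was the most correlated of all genes with Cdkn1a, and Phlda3 the next. With ranks in place of log2 values, limma called 0 genes higher with Cdkn1a (0%; 1271 at an unadjusted p under 0.05), though r of the ranks stayed at 0.64 for Ccng1 and 0.58 for Phlda3. Another probe set of Ccng1, which followed the first with r = 0.87, gave r = 0.49 with Cdkn1a and the pair was not called.

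The second trio had more company. Phlda3 and Sesn2 had r = 0.68 and rho = 0.70 (larger adjusted p = 1.6e-05), Bbc3 and Phlda3 r = 0.52 and rho = 0.65 (0.00159), and Bbc3 and Sesn2 r = 0.46 and rho = 0.58 (0.00788). Here the background was wide: 17.8% of all genes rose with Bbc3, 17.4% with Phlda3 and 16.2% with Sesn2, beside 4, 5 and 3 of the 7 other genes of the set. With the 2 most distant arrays left out, r was 0.58, 0.65 and 0.55.

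Mdm2 was in no called pair. Its r was 0.47 with Cdkn1a, 0.45 with Ccng1, 0.49 with Bbc3, 0.36 with Phlda3 and 0.32 with Sesn2. In the limma fit of Mdm2, 5 of the 7 genes passed an unadjusted p under 0.05. No gene of the array rose with Mdm2 at the threshold (0%) and none fell (0%), with 1896 higher and 1041 lower at an unadjusted p under 0.05. The closest were Atp6v0a2, a proton pump subunit, at r = 0.62 (adjusted p = 0.0521), Prkar1a, a regulatory subunit of protein kinase A, at 0.60 and Plscr2 at 0.58; 2700081O15Rik and Ahnak were the most opposed, both at -0.55.

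**Figure D2:**
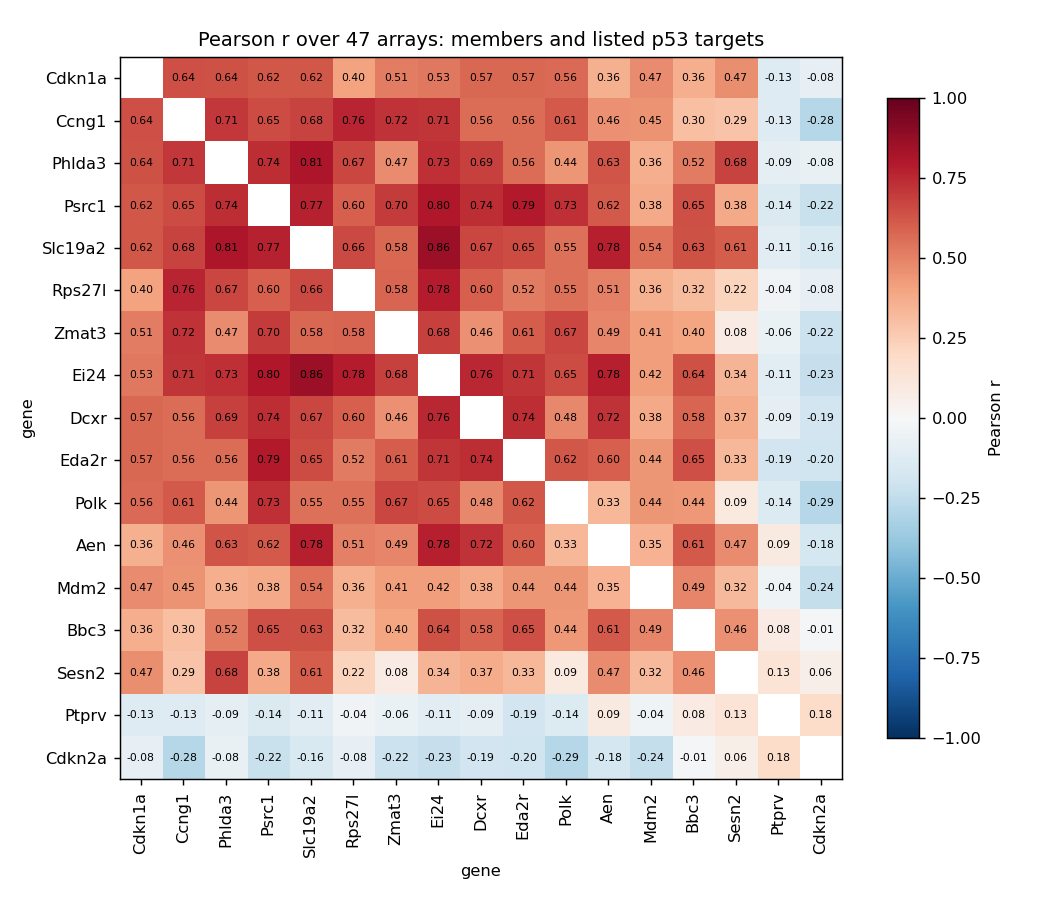
Pearson r over 47 arrays between the 8 genes and 9 listed p53 targets, from blue (-1) through white to red (1), each cell with its r. The 9 targets were taken from those that rose with genes of the set in these data. Listed targets that fell, such as Sesn1, Pmaip1 and Tigar, are not shown. The block at the upper left is red throughout, which follows in part from that choice, while the Ptprv and Cdkn2a rows stay pale, between -0.29 and 0.18.

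A wider list of p53 targets, of which 41 outside the set were tested, was read in each fit. With Ccng1, 8 of the 41 rose and 0 fell, where 1.19% of all genes rose and 0.286% fell. At an unadjusted p under 0.05 in limma 4 of the 41 were lower, as were 1358 of all 18178 genes. Among all 18178 genes, the 3 most correlated with Ccng1 were on the list. They were Rps27l, a ribosomal protein paralogue induced by p53 (r = 0.76, adjusted p = 5.9e-06), Zmat3, an RNA-binding zinc finger protein (r = 0.72), and Ei24, an endoplasmic reticulum protein of autophagy (r = 0.71). Slc19a2, a thiamine transporter, ranked 5 with r = 0.68, and Psrc1, a microtubule-binding protein, ranked 7 with r = 0.65. Polk, a DNA polymerase that copies past lesions, had r = 0.61, and Eda2r, a receptor of the TNF family, and Dcxr, a sugar reductase, had r = 0.56 each. Phc2 and Hsd17b11 were the most opposed to Ccng1, at -0.60 and -0.59.

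The median r of the list with Ccng1 was 0.07, beside 0.05 over all genes, so a typical gene of the list followed Ccng1 about as little as a typical gene of the array. With Cdkn1a, 2 of the 41 rose, Psrc1 at r = 0.62 (adjusted p = 0.0118) and Slc19a2 at r = 0.62, and 15 were higher and 0 lower at an unadjusted p under 0.05. Dcxr at 0.57, Eda2r at 0.57 and Polk at 0.56 missed the threshold with Cdkn1a but ranked 6, 7 and 10 of all genes. The median r of the list with Cdkn1a was 0.15, beside 0.06 over all genes. With Mdm2, limma called 0 of the 41, with 14 higher and 4 lower at an unadjusted p under 0.05.

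With some cell type list means as covariates, the pairs of the first trio were still called and those of the second were not. When list means of erythroid, B cell, T and NK cell, and neutrophil genes were added as covariates, the pairs of Cdkn1a, Ccng1 and Phlda3 were all still called, with r of 0.64, 0.64 and 0.67. The genes that rose with Ccng1 then fell from 217 to 8, of which 7 were p53 targets: Cdkn1a, Phlda3, Rps27l, Zmat3, Ei24, Slc19a2 and Psrc1; the other was Stt3b (0.044% of all genes). The 3 genes that rose with Cdkn1a were Ccng1, Phlda3 and Slc19a2 (0.0165%). In the same fit r fell to -0.0032 for Bbc3 and Phlda3, to -0.13 for Bbc3 and Sesn2 and to 0.45 for Phlda3 and Sesn2, and none of these was called. The means of monocyte and macrophage, megakaryocyte and platelet, and stroma genes were not among the covariates. The cause of these changes was not tested.

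**Figure D3:**
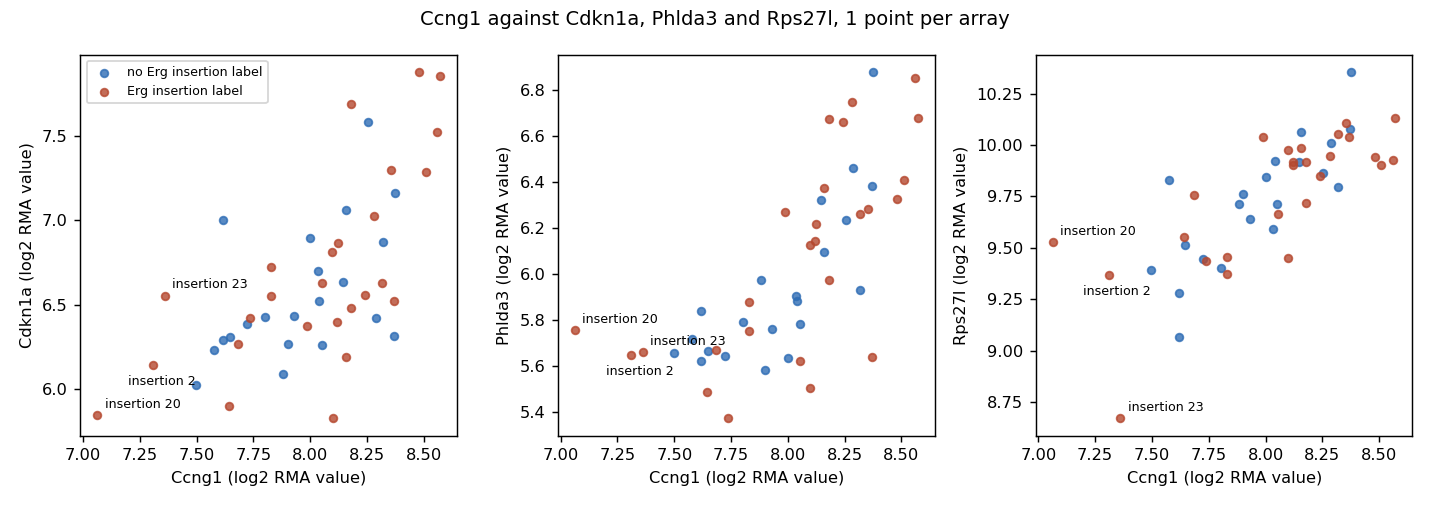
Log2 RMA values of Ccng1 against Cdkn1a (left), Phlda3 (middle) and Rps27l (right), 1 point per array, red for arrays labelled with an Erg insertion and blue for the rest. All 3 genes climb with Ccng1, with r of 0.64, 0.71 and 0.76; arrays 20, 2 and 23 of the insertion group are those with the lowest Ccng1.

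With Phlda3, Bbc3 and Sesn2 the wider list split. Of its 41 genes, 12 rose and 11 fell with Phlda3, 14 rose and 8 fell with Bbc3, and 9 rose and 11 fell with Sesn2, where 17.4%, 17.8% and 16.2% of all genes rose and 11.1%, 10.8% and 11.9% fell. Slc19a2 had the highest correlation of all genes with Phlda3, at r = 0.81, and Aen, a p53-induced nuclease, had 0.63. Genes that fell with all 3 included Sesn1, the sister of Sesn2 (r = -0.70 with Phlda3), Pmaip1, which encodes the BH3-only protein NOXA (-0.60), and Tigar, a brake on glycolysis (-0.60); these were named after their values were seen. With the same cell type list means as covariates, 2 of the 41 rose and 1 fell with Phlda3, where 0.088% and 0.116% of all genes did.

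Of 22 listed regulators of p53, 4 rose with Phlda3, 6 with Bbc3 and 3 with Sesn2, where 17.4%, 17.8% and 16.2% of all genes rose, and 3 fell with Sesn2, where 11.9% fell. The counts with Phlda3 and Sesn2 were near these shares. Chek2, a kinase that phosphorylates p53 after DNA damage, passed in 4 fits and was the only regulator to rise with Ccng1 (r = 0.54, adjusted p = 0.0239); its r with Phlda3 was 0.71. E2f1, a transcription factor that induces p19ARF, passed in 3 fits, always higher, and Atr and Rchy1 passed in 2. Pml passed higher and Atm lower in 1 fit each. With Cdkn1a, Mdm2, Ptprv and Cdkn2a, 0 regulators passed. At an unadjusted p under 0.05 in limma, 1 was higher with Cdkn1a and 6 with Mdm2. Of all 18178 genes, 1514 and 1896 were. With Ptprv 1 was higher and 1 lower, where 1281 and 950 of all genes were. With Cdkn2a the count was 0, where 166 of all genes were higher and 238 lower.

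Sesn2 kept company outside the p53 list. Its closest genes were Atf4, the transcription factor of the amino acid and stress response (r = 0.83, adjusted p = 6.6e-09), Nars, an asparaginyl-tRNA synthetase (0.80), and Chac1, a glutathione-degrading ATF4 target (0.79). Tigd2 and Ttc32 were the most opposed, at -0.82 and -0.78. Bbc3 was closest to Adcy9, an adenylyl cyclase, at r = 0.90, then to Nmnat3 and Mknk1, at 0.86 and 0.85, and most opposed to Znrf1 and Macroh2a1, both at -0.77. After Slc19a2, Phlda3 was closest to Ankrd27 and Rfesd, both at 0.80, and most opposed to Coro7 and Rassf5, both at -0.78.

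The markers of other cells in the spleen were read as list means, in standard deviation units. Of 72 relations between the 8 genes and 9 means, 13 passed limma's adjusted p of 0.05. Bbc3, Phlda3 and Sesn2 rose with the erythroid mean, at r of 0.61, 0.47 and 0.46, where 13.7% of all genes rose. The same 3 fell with the B cell mean, at -0.63, -0.49 and -0.62, where 20.2% of genes fell, and Ptprv fell too, at -0.43. Bbc3 and Phlda3 fell with the T and NK cell mean (-0.49 and -0.52; 10.9% of genes fell), and Ptprv rose with it (0.48; 9.12% rose). Phlda3 also fell with the neutrophil mean (-0.42; 14.8% of genes fell and 7.46% rose) and, with Sesn2, with the monocyte and macrophage mean (both -0.44; 15.9%). Cdkn1a, Mdm2, Ccng1 and Cdkn2a passed with none of the 9 means. No gene of the set passed with the means of megakaryocyte and platelet genes (2.29% of all genes rose and 0.589% fell), stroma and endothelium (2.7% and 2.03%) or cell cycle genes (6.08% and 2.37%), nor with the 3′ minus 5′ difference of the array's control probe sets, a sign of RNA quality (10.4% and 8.15%). The part of cell content in the relations of Bbc3, Phlda3 and Sesn2 was not tested beyond the fit with covariates.

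**Figure D4:**
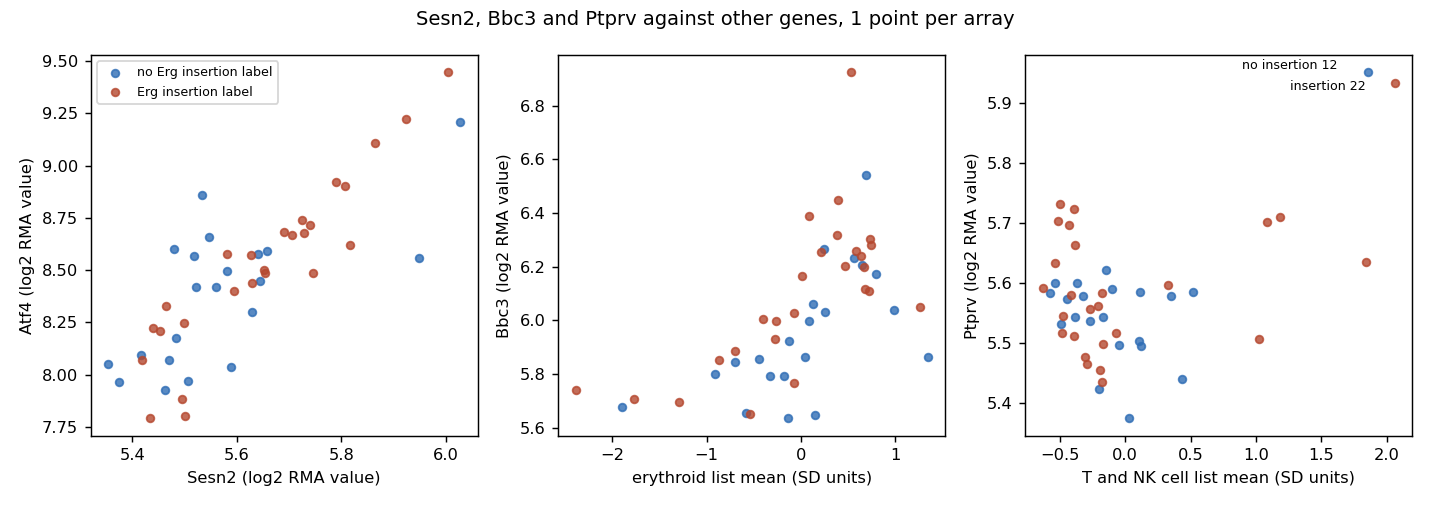
Sesn2 against Atf4 (left, log2 RMA values), the erythroid list mean against Bbc3 (middle) and the T and NK cell list mean against Ptprv (right), 1 point per array, red for an Erg insertion label and blue for none. Sesn2 and Atf4 climb together (r = 0.83), Bbc3 climbs with the erythroid mean (r = 0.61), and the Ptprv relation rests on the 2 arrays at the upper right.

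Ptprv was highest in array 12 without the insertion label (5.95) and array 22 with it (5.93), which also had high T and NK cell means. Without them its r with that mean was 0.08 in place of 0.48, and over all arrays rho was -0.06. Its closest genes, Gtf2h4, Prmt7 and Ptpn13, at 0.72, 0.71 and 0.70, dropped to 0.49, 0.37 and 0.56 when the 2 most distant Ptprv values were left out. Ppp3ca and Tut4 were the most opposed, at -0.73 and -0.65. In the limma fit of Ptprv, 1.15% of all genes rose and 0.512% fell. Of the 7 others of the set 0 were called, and of the 41 listed targets 0. At an unadjusted p under 0.05 the counts were 0 genes of the set and 1 target higher and 3 lower. Of all 18178 genes, 1281 were higher and 950 lower.

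The next question was whether any spleen combined raised Cdkn2a with low p53 targets. Array 20 of the insertion group, from line 6070, had Cdkn2a at 8.06 and also the lowest Ccng1 of all 47 arrays, 7.06, and the second lowest Cdkn1a, 5.85. Polk was the lowest there at 5.51, Zmat3 the second lowest at 5.09, and Ei24 and Psrc1 the third lowest at 6.83 and 5.77. Of 48 listed targets, the 7 of the set included, 11 (22.9%) were among their lowest 3 values in this array, against 7.32% of all genes, and 3 (6.25%) among their highest 3, against 6.32%. Ccng1 and Cdkn1a made up 2 of the 11. The array was picked for such values and for its Cdkn2a, so this share partly restates that choice. Polk, Zmat3, Ei24 and Psrc1 were themselves among the targets that rose with Ccng1 in these data.

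The low readings in array 20 did not extend to every target. Its Sesn2 was 5.86, Bbc3 6.20 and Ptprv 5.73, which ranked 43, 33 and 45 of 47 from the lowest, while Phlda3 at 5.76 ranked 17 and Mdm2 at 6.66 ranked 10. Cdkn2b, which neighbours Cdkn2a and encodes p15INK4b, ranked 45 at 6.10, and Atf4 ranked 44. Its erythroid mean ranked 38, its B cell mean 6 and its monocyte and macrophage mean 1; their part in these values was not tested.

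The other 5 arrays with Cdkn2a above 6 were mixed. In the insertion group, array 13 (Cdkn2a 6.68) had Ccng1 at 8.28, Cdkn1a at 7.03 and Phlda3 at 6.75, all in the upper part of their ranges, but the lowest Mdm2, 6.50. Over the wider list, 5 of the 48 targets (10.4%) were among their lowest 3 values there, against 5.07% of all genes, and 2 (4.17%) among their highest 3, against 7.65%. Array 2 (Cdkn2a 6.46) had the second lowest Ccng1, 7.31, the lowest Psrc1, 5.71, and the lowest cell cycle mean, but over the list only 2 of the 48 (4.17%) were among their lowest 3, against 6.09% of all genes. Array 10 of that group (Cdkn2a 6.12) had Ccng1 at 8.37 but the third lowest Bbc3, 5.65. In it 6 of the 48 (12.5%) were among their lowest 3, against 4.24% of all genes, and 0 among their highest 3, against 5.30%. Arrays 13 and 6 without the label had Cdkn2a at 6.45 and 6.38 with Ccng1 at 8.03 and 8.32, and in them 4 (8.33%) and 0 of the 48 were among their lowest 3, against 10.7% and 5.03% of all genes.

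Across all arrays Cdkn2a was called with no target. Its r with Ccng1 was -0.28 and its rho -0.01 (permutation p = 0.0526 and 0.936), and without array 20 r was 0.02. In the limma fit 12 genes rose with Cdkn2a (0.066%) and 0 fell (0%). At an unadjusted p under 0.05, 166 were higher and 238 lower. Of the set 0 were called, and of the 41 listed targets 0. Without adjustment 1 gene of the set was lower and 1 listed target passed in each direction. The closest were Sdccag8 at r = 0.74, Bmper at 0.72 and 9130024F11Rik at 0.72, and each of them rested on array 20, where Bmper read 10.29 and Sdccag8 10.10. Without it their r was 0.19, -0.13 and -0.0090. Coq2 and Gpr161 were the most opposed, at -0.51 and -0.50, neither past the threshold.

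**Figure D5:**
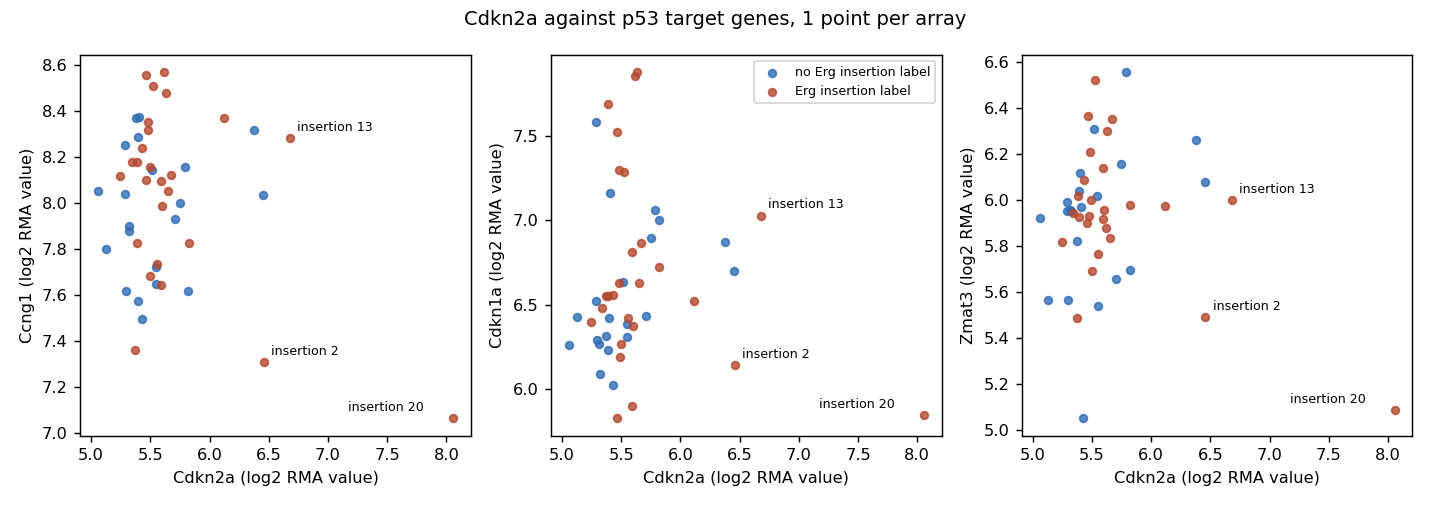
Log2 RMA values of Cdkn2a against Ccng1 (left), Cdkn1a (middle) and Zmat3 (right), 1 point per array, red for an Erg insertion label and blue for none. Array 20 of the insertion group stands alone at Cdkn2a 8.06 with low values of all 3 targets, and arrays 13 and 2, next in Cdkn2a, lie high and low.

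Array 20 also bore on the breadth of the Ccng1 fit. Without it, 2005 genes (11.0%) rose with Ccng1 in place of 217, and 10 of the 41 listed targets rose, the earlier 8 among them, and 6 fell, where 6.08% of all genes fell. With Cdkn1a, 16 genes (0.088%) then rose in place of 5, including 4 listed targets: Psrc1, Slc19a2, Dcxr and Eda2r.

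Low targets without raised Cdkn2a were seen as well. Array 5 without the insertion label had Zmat3 at 5.05 and Aen at 5.74, the lowest of all arrays, Bbc3 at 5.65 and Mdm2 at 6.60, the second lowest, Ccng1 at 7.50 and Cdkn1a at 6.02, and Cdkn2a at 5.43. In it 12 of the 48 listed targets (25.0%) were among their lowest 3 values, against 9.64% of all genes. Genes of the set made up 2 of the 12, and the array was picked for such values, so this share partly restates that choice. Array 23 of the insertion group had the third lowest Ccng1, 7.36, and the lowest Rps27l, 8.67, with Cdkn2a at 5.37. In it 8 of the 48 (16.7%) were among their lowest 3, near the 13.4% of all genes that were. Among their highest 3 were 4 (8.33%), against 11.6% of all genes. Its 3′ minus 5′ control difference ranked 46 of 47, and the part of that in its values was not tested.

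The lowest Cdkn1a and the lowest Phlda3 were in 2 other arrays of the insertion group, both of line 6070. Array 19 had Cdkn1a at 5.83 and Dcxr at 5.55, the lowest of all arrays, Slc19a2 at 5.62 and Psrc1 at 5.74, the second lowest, and Phlda3 at 5.51, the third lowest, with Ccng1 at 8.10 and Cdkn2a at 5.46. In it 8 of the 48 (16.7%) were among their lowest 3, against 10.0% of all genes, and 6 (12.5%) among their highest 3, against 6.43%. Array 22 had the lowest Phlda3, 5.37, Ei24, 6.64, Slc19a2, 5.55, and Eda2r, 4.99, with Cdkn2a at 5.55. In it 9 of the 48 (18.8%) were among their lowest 3, against 11.4% of all genes, and 5 (10.4%) among their highest 3, against 7.18%. Genes of the set made up 2 of the lowest-3 targets in array 19 and 1 in array 22. Both arrays were picked for such values, so these shares partly restate that choice. The T and NK cell mean ranked 42 in array 19 and 47 in array 22, and the erythroid mean 8 and 4; their part in these values was not tested.

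At the other end, arrays 15, 6 and 7 of the insertion group, all of line 6113, had the highest Cdkn1a, at 7.88, 7.85 and 7.69. In array 15, 12 of the 48 listed targets (25.0%) were among their highest 3 values, against 7.10% of all genes, and in array 6 it was 10 (20.8%), against 7.16%. In array 7 it was only 5 (10.4%), against 6.89%. Genes of the set made up 2 of the targets counted in each. The arrays were picked for their Cdkn1a, so these shares partly restate that choice. Array 6 also had the highest Ccng1, 8.57, Ei24, 7.60, and Slc19a2, 6.78. Array 15 stood out in other genes too, with the highest megakaryocyte and platelet mean and the highest stroma mean, whose part was not tested. Array 25 of that group, from line 6070, had 9 of the 48 (18.8%) among the highest 3, against 4.68% of all genes. It also had 4 (8.33%) among the lowest 3, against 4.51%. Of the 9, 4 were genes of the set, for whose values the array was picked. Phlda3 read 6.85 there, Mdm2 7.11, Sesn2 6.00, Psrc1 7.34 and Atf4 9.45.

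No gene of the set passed between the labelled groups. The Erg comparison was a limma fit with line and sex as covariates, and Cdkn1a ran from 5.83 through a median of 6.56 to 7.88 in the 26 arrays with the insertion label and from 6.02 through 6.43 to 7.58 in the 21 without, a log2 difference of 0.19 ± 0.15 (SE). Cdkn2a differed by 0.19 ± 0.15, Bbc3 by 0.15 ± 0.078, Phlda3 by 0.12 ± 0.12, Ccng1 by 0.092 ± 0.10, Sesn2 by 0.067 ± 0.048, Mdm2 by 0.048 ± 0.046 and Ptprv by 0.047 ± 0.034, each higher with the label and each at an adjusted p of 0.999. For every gene the ranges of the groups overlapped.

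Line, sex and age gave no call either. Line 6113 minus line 6070 ranged from -0.078 ± 0.12 for Phlda3 to 0.20 ± 0.15 for Cdkn1a, and female minus male from -0.099 ± 0.14 for Cdkn2a to 0.12 ± 0.076 for Bbc3. Per unit of the age label Ccng1 changed by -0.0095 ± 0.0038 and Mdm2 by -0.0039 ± 0.0017, unadjusted p = 0.0156 and 0.0263 and an adjusted p of 1.00 for both in limma. Over all 18179 genes, limma called 0 genes (0%) for each of the Erg, line, sex and age labels; 666, 540, 460 and 688 had an unadjusted p under 0.05. A difference of the Erg effect between the lines passed for 0 genes (0%; 1286 at an unadjusted p under 0.05 in limma). For Phlda3 it was larger in line 6113 by 0.40 ± 0.24 (adjusted p = 0.734) and for Cdkn1a by 0.44 ± 0.31 (adjusted p = 0.772). With labels in doubt, these comparisons hold for the labels as deposited.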

How the data were processed

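RNA of 47 leukaemic spleens, 1 array per mouse, was measured on Affymetrix Mouse Genome 430 2.0 arrays after 3′ in vitro transcription labelling, per the labels' protocols. The deposited unit is log2 expression; per the submitters' processing notes, the authors ran RMA (affy package, R 2.15), which removes background, equalises the arrays by quantiles, sums up each probe set and compresses dim genes towards a floor. Precision is limited by the number of arrays.

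Gene names came from the platform's annotation, which gave 1 gene to 34958 of 45101 probe sets, several to 932 and none to 9147. Each gene took its brightest single-gene probe set, giving 18194 genes, and the 18179 that exceeded a log2 of 5 in 9 or more arrays were tested (15 removed). Tests used limma 3.58.1 (R 4.3.3), and p-values were adjusted by Benjamini-Hochberg across every tested gene. A gene's own level, or a list mean, was the covariate in the fits across arrays. Correlations over arrays carry permutation p-values. Fits were tested on the measured values, with labels shuffled or a random covariate drawn and known shifts added to some genes. Motifs and RefSeq windows were read with pandas 2.3.3.

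The genes, their lists and the tests were chosen with earlier results of these data known. Named are the 8 genes, the listed targets and regulators that passed in most fits (up to 6 per list), and for each gene the 3 most correlated and 2 most opposed others. The arrays named are those with Cdkn2a above 6 and some of those at the 3 highest or lowest values of a gene of the set. Other arrays at such values are not described, and the choice was made with the values seen. The fit of Erg effects by line was added after the data were seen. Other genes named were chosen after their values were seen. Alternatives were the filter, the probe set, covariates, ranks, groups and arrays left out.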

Additional observations from a re-analysis of the deposited data

How the results depend on the processing

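The 6 called pairs were 6 or 7 when each array was left out in turn, and 6 with the Erg, line and sex labels as covariates. They were 3 with cell type list means as covariates, when r turned to -0.0032 for Bbc3 and Phlda3 and to -0.13 for Bbc3 and Sesn2; the cause was not tested. Within line 6070, line 6113, arrays with the Erg label and arrays without it, with fewer arrays each, 2, 3, 3 and 0 pairs were called, and no called pair changed sign. Listed targets that rose with Cdkn1a were 2, and 1 with the list means, 0 on ranks and 4 without array 20 of the insertion group; with Ccng1 they were 8, and 5 with the list means; with Phlda3 they were 12, and 2 with the list means. These alternatives on listed targets, and leaving out array 20, were chosen after seeing the data. Over all genes, 217 rose with Ccng1, and 1073 on ranks and 106 with the labels as covariates; 3159 rose with Phlda3, and 16 with the list means. The 13 relations with list means were 20 on ranks and between 12 and 17 with each array left out. In arrays whose sex label fitted Xist and the Y-linked genes, 1 gene, Crip1, passed with line and 6 passed with sex, in place of 0; those 6 were Xist, Eif2s3x, Kdm6a, Eif2s3y, Kdm5d and Uty.

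No paired analysis was possible because the replicate numbers follow accession order and only name samples. Signal over the array floor limits Bbc3, Phlda3, Sesn2, Ptprv and Cdkn2a. Of the other genes named, it also limits Gkn3, Eda2r and Tigar.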
